A study of Mus musculus with 24 samples.

Results

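The urea cycle and the enzymes and carriers that bring nitrogen to it were followed through 10 genes, which were chosen by name for their place in the pathway: Cps1, Otc, Ass1, Asl, Arg1, Nags, Slc25a13, Slc25a15, Gls2 and Glud1. All 10 were found among the 56205 genes of the count table, and all 10 passed the filter on low counts together with 17913 genes in total. The table held RNA-Seq counts of whole liver from C57BL/6J mice, 12 of them fed a high-fat diet and 12 the matching control diet, 1 library each. The labels name no engineered allele for either group. Mice entered the diets at 8 to 10 weeks of age and stayed on them for 20 weeks. The high-fat diet, called FFD in the study, contained palm oil, fructose and cholesterol. The study used 6 mice per diet and sex, but the labels give no sex for a single library. Within each diet, 6 libraries had Xist counts above 1000 (replicates 1 to 6) and 6 had counts below 1000 (replicates 7 to 12), and the diets were also compared within each of these sets.

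The urea cycle is the route by which the liver turns toxic ammonia into urea for excretion. It runs in hepatocytes, mostly those near the portal vein, and is split between mitochondria and cytosol. Ammonia released by glutaminase and glutamate dehydrogenase enters with bicarbonate as carbamoyl phosphate, which is joined to ornithine to give citrulline. Aspartate brings the second nitrogen, and cleavage of arginine returns ornithine and releases urea. Transcription of these genes in liver is known to respond to glucagon, glucocorticoids and protein intake.

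Depth ranged from 14468418 to 22112552 counts per library. Each member had between 1023 counts (Nags) and 115186 counts (Ass1) in every library, so counting error was small beside the spread between animals. Levels are given as CPM after TMM scaling (each count divided by a scaled library size), a scaling that sets library sizes so that most genes do not shift. Unless stated otherwise, overlap between diets and numbers of libraries below every control refer to these CPM and can change with another scaling. TMM factors were 0.9945 to 1.341 on the high-fat diet and 0.679 to 1.006 on the control diet, with the lowest in control replicate 10. Defining genes of hepatocytes were abundant in every library, and none of the 9 tested was at 0. Per kilobase of exon, the mean control level was highest for Ass1, at 1825 ± 565.3 CPM (SD, n = 12), and lowest for Nags, at 32.38 ± 5.429. Arg1 and Cps1 followed Ass1 with 668.7 ± 145.2 and 584.7 ± 168.8 CPM per kilobase, a pair whose SDs overlapped. Slc25a13, Otc and Slc25a15 lay next to each other at 72.36 ± 12.07, 71.39 ± 6.784 and 68.7 ± 16.79 CPM per kilobase and could not be ordered within their spread.

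The start sites of the members differ in base composition, which the choice of genes did not use. RefSeq windows (GRCm38.p6) of 300 bases, 250 before and 50 after the start site, were found for 6 of the 10 members: Ass1, Slc25a13, Slc25a15, Nags, Glud1 and Otc. The 120 bases before the start are printed for 4 of them, to show the range from a start with no CpG to one crowded with them. They are Otc (chrX:10252185-10252304, plus strand), Nags (chr11:102145393-102145512, plus strand), Slc25a13 (chr6:6217174-6217293, minus strand) and Glud1 (chr14:34310607-34310726, plus strand). Each is written 5′ to 3′ on the strand of its gene, and capitals mark CpG dinucleotides.
Otc: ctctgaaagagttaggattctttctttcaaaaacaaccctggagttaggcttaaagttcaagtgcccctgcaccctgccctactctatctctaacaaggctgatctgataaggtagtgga
Nags: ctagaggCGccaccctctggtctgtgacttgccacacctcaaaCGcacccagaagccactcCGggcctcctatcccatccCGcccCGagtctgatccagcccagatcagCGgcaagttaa
Slc25a13: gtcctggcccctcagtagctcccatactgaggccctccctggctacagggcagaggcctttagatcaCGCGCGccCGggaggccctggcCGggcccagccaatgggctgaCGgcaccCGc
Glud1: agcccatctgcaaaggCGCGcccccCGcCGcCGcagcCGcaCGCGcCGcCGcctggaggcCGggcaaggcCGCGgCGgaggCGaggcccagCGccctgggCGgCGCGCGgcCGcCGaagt
The printed stretches hold 0 CpG in Otc, 6 in Nags, 7 in Slc25a13 and 22 in Glud1. Over the whole 300-base windows, G and C made up 44.3% in Otc and 81% in Glud1, against a median of 52.7% over all 32851 windows. Motifs were searched on both strands. TGACG, which is contained in the cAMP response element TGACGTCA, was present in the windows of Slc25a13 and Nags and in 20.8% of all windows. TGACGTCA itself (1.79% of all windows), the C/EBP motif TTGCNNAA (10.8%) and the HNF4 motif CAAAGTCCA (0.475%) had no match in the windows of these 6 members. Nor did AGAACA (19%), which is only a part of the glucocorticoid receptor's element, or TATAAA (13.6%).

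On the high-fat diet, 7 of the 10 genes were lower: Cps1, Ass1, Asl, Arg1, Slc25a13, Slc25a15 and Gls2. Their mean CPM was 47.72% (Asl) to 67.67% (Slc25a13) of the control mean. A call needed both a log2 fold change beyond 0.5 in size and a p, adjusted by Benjamini and Hochberg's method over all 17913 genes, of 0.01 or less in edgeR's quasi-likelihood test. Otc, Nags and Glud1 were not called, and no member was higher. In the same test 4.99% of all genes were lower and 13.2% were higher. DESeq2 also called 0 members higher and 7 lower, and the fitted log2 fold change was below 0 for all 10. The median log2 fold change was -0.77 over the members and -0.03 over all genes tested. Summed over the members, libraries held 7032 to 18150 CPM on the control diet and 5308 to 10840 CPM on the high-fat diet. In bulk liver, fewer hepatocytes and less RNA of these genes per hepatocyte cannot be told apart.

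**Figure D1:**
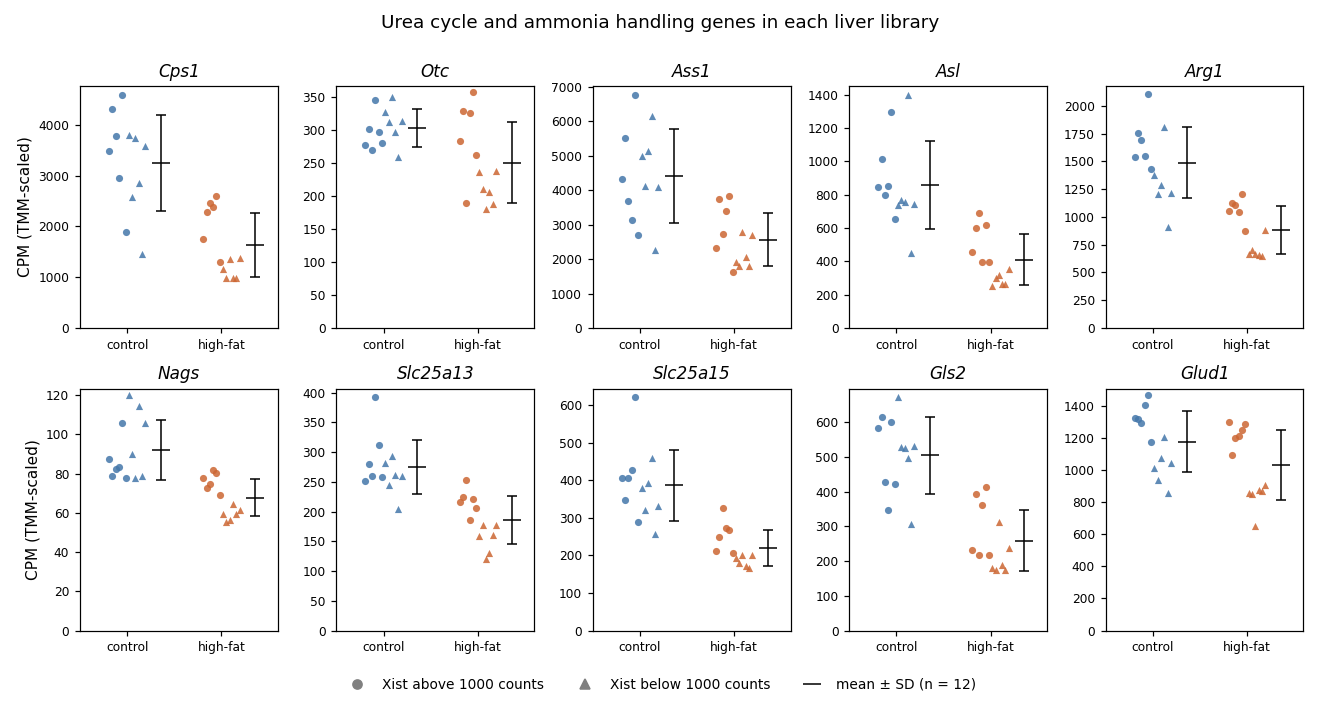
CPM (y axis, from 0) of each of the 10 genes in the 12 control and 12 high-fat diet libraries (x axis). Each point is a library, circles with Xist above and triangles with Xist below 1000 counts, and black lines give the mean ± SD. For 8 genes all 12 high-fat diet points lie below the control median, and for none of the 10 do the diets separate fully.

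Markers of hepatocytes were lower, like the members, and those of several other cell types were higher. Of 9 hepatocyte markers 6 were lower and none was higher, with a median log2 fold change of -0.65, while none was called with library totals in place of TMM (median -0.37). Their summed level was 87920 to 137800 CPM on the control diet and 41770 to 97440 on the high-fat diet. Alb, the serum albumin gene, was at 71020 CPM (median) on the control diet and 43590 on the high-fat diet, a log2 fold change of -0.72 ± 0.18 (SE). Of the macrophage markers 7 of 8 were higher, with summed levels of 167.7 to 731.6 CPM on the control diet and 739.3 to 1593 on the high-fat diet. Cholangiocyte markers were higher in 4 of 5 cases (27.29 to 131 against 31.61 to 880.5 CPM), stellate cell and myofibroblast markers in 4 of 7 (153.6 to 421.2 against 357.8 to 829 CPM) and endothelial markers in 2 of 6 (122.2 to 257.3 against 128 to 342.2 CPM). T cell markers were called in 0 of 5 cases (1.629 to 8.767 against 2.176 to 6.468 CPM). Of the markers of kidney and intestine, tissues that also express urea cycle enzymes, 0 of the 3 tested were called (59.04 to 232.6 against 56.14 to 148.7 CPM, summed over these 3). Nearly all of that sum was Fabp2, at 58.4 to 231.4 CPM on the control diet. Umod, Slc34a1 and Lct did not pass the filter on low counts, and no tested marker was at 0 in every library, which the filter requires. The part of these cell types in the members' differences was not tested.

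Ammonia supply was examined first. Gls2 (chr10:128194457-128210004, plus strand), the liver-type glutaminase that frees ammonia from glutamine, was at 308.4 CPM in the lowest control library, 527 at the median and 672 in the highest. On the high-fat diet the corresponding values were 173.1, 225.4 and 412.8 CPM. The ranges overlapped, although 8 high-fat diet libraries lay below the lowest control. This gave a fitted log2 fold change of -0.97 ± 0.16 (SE) with an adjusted p of 4.91e-05. Exons of Spryd4 on the other strand overlap those of Gls2, and with 458 to 784 counts per library against at least 3193 for Gls2 and an unknown strand setting, a share of Gls2 reads could belong to it.

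Glud1 (chr14:34310727-34345265, plus strand), glutamate dehydrogenase, which releases ammonia from glutamate in the mitochondrion, was at 857.9, 1192 and 1467 CPM in the lowest, median and highest control library. High-fat diet libraries held 652.2, 1000 and 1297 CPM. The groups overlapped widely and only 3 high-fat diet libraries fell below the lowest control. The log2 fold change of -0.19 ± 0.12 did not pass the test (adjusted p = 0.191). In both diets the libraries with low Xist counts lay lower, at 1024 against 1330 CPM (means) on the control diet.

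At the entry of the cycle, Nags makes N-acetylglutamate, the obligate activator of carbamoyl phosphate synthetase. Nags (chr11:102145513-102149477, plus strand) was at 77.83, 85.44 and 120.1 CPM in the lowest, median and highest control library and at 55.45, 66.75 and 81.74 CPM on the high-fat diet. It was the lowest expressed member, and with TMM scaling 9 high-fat diet libraries lay below every control. Relative to library totals, only high-fat diet replicates 7, 8 and 11 lay below the lowest control, replicate 9. The fitted log2 fold change of Nags, -0.44 ± 0.09, had an adjusted p of 0.000495 but was under the fold threshold. The antisense gene Gm11586, with 8 to 85 counts, shares exon positions with Nags.

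Cps1 (chr1:67123026-67231259, plus strand), carbamoyl phosphate synthetase, fixes ammonia in the step that commits it to the cycle. Control libraries held 1452 CPM at the lowest, 3537 at the median and 4583 at the highest, and high-fat diet libraries 980.1, 1367 and 2603 CPM. The lowest control was replicate 11, the next was replicate 6 at 1882 CPM, and 7 high-fat diet libraries lay below both. The mean fell to 50.33% of the control mean, the fitted log2 change being -0.99 ± 0.20 (adjusted p = 0.000376).

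Otc (chrX:10252305-10321024, plus strand), ornithine transcarbamylase, forms citrulline from carbamoyl phosphate and ornithine. It was the most even member among control libraries, with 259, 300 and 349.8 CPM (lowest, median, highest) and a coefficient of variation of 9.503%. High-fat diet libraries spread over 179.9 to 358.2 CPM with a median of 237.1 and a coefficient of variation of 24.36%. The highest library of all was on the high-fat diet, and with TMM scaling 7 others of that diet lay below every control. Relative to library totals, only high-fat diet replicate 3 (3558 of 18767950 counts) lay below the lowest control, replicate 10 (2913 of 14468418 counts). The log2 fold change of -0.27 ± 0.11 was not called (adjusted p = 0.0478).

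Both mitochondrial carriers were lower. Slc25a15 (chr8:22375551-22398597, minus strand), the ornithine carrier that brings ornithine in and citrulline out, was at 256.6, 387.1 and 621.2 CPM on the control diet and at 165.8, 203.9 and 324.9 CPM on the high-fat diet (lowest, median, highest). Here 9 high-fat diet libraries lay below every control, and Slc25a15 changed by -0.81 ± 0.13 on the log2 scale. Its adjusted p of 2.96e-05 was the smallest among the members. Slc25a13 (chr6:6041218-6217173, minus strand) encodes citrin, which exports the aspartate used by argininosuccinate synthetase. It was at 204, 260.4 and 393.1 CPM on the control diet and at 119.8, 181.6 and 252.4 CPM on the high-fat diet. The ranges overlapped, with 7 high-fat diet libraries below every control, a log2 change of -0.56 ± 0.11 (adjusted p = 0.000369).

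The cytosolic enzymes were all lower. Ass1 (chr2:31470207-31520672, plus strand), argininosuccinate synthetase, joins citrulline and aspartate and was at 2257, 4212 and 6762 CPM (lowest, median, highest) on the control diet and at 1623, 2497 and 3817 CPM on the high-fat diet. Fewer high-fat diet libraries lay below every control than for the other called members, namely 5, and the log2 change was -0.79 ± 0.18 (adjusted p = 0.0011). Asl (chr5:130011258-130029247, minus strand), argininosuccinate lyase, releases arginine and fumarate. It was at 448.7, 781 and 1396 CPM on the control diet and at 249.5, 375.6 and 693.4 CPM on the high-fat diet. At -1.07 ± 0.19 on the log2 scale (adjusted p = 8.16e-05) it had the largest fitted fall of the 10, and 8 high-fat diet libraries lay below every control. Its highest control value came from replicate 10, and without that library the log2 fold change was -0.98.

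Arg1 (chr10:24915221-24927484, minus strand), liver arginase, cleaves arginine into urea and ornithine. The control libraries held 909.3, 1487 and 2106 CPM and the high-fat diet libraries 643.9, 874.2 and 1207 CPM (lowest, median, highest). Of the high-fat diet libraries 7 were below every control, and the fitted log2 change was -0.75 ± 0.14 (adjusted p = 0.000123). For all 10 genes the diets overlapped over the 24 libraries, while every high-fat diet library lay below every control for 0.402% of the genes tested. Control replicate 11 was the lowest control for 9 members, the exception being Nags, and it also had the lowest summed member level of the control diet, 7032 CPM. Control replicate 5 was the highest control for 5 members, and high-fat diet replicate 5 the highest of its diet for 5.

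Calls depended on how libraries were set to one scale. With library totals in place of TMM, the median log2 fold change of all genes moved from -0.03 to 0.26, and calls of higher genes rose from 72.63% to 94.42% of all calls. Under that scaling 4 members were lower, namely Cps1 (-0.73), Asl (-0.79), Slc25a15 (-0.52) and Gls2 (-0.68), against 1.26% of all genes. Ass1 (-0.49), Arg1 (-0.48), Slc25a13 (-0.29) and Nags (-0.14) were below 0 and not called, Otc was at 0.00, and Glud1 turned to 0.07. A scaling by the counts of the 9 hepatocyte markers, chosen after seeing the data, put the median of all genes at 0.54. It left Asl as the 1 member called (-0.52), against 0.653% of all genes. Otc was at 0.28 (adjusted p = 0.0157 in edgeR's test) and Nags at 0.13 (adjusted p = 0.15). Glud1 was at 0.36 with an adjusted p of 0.000233, and was not called because it was under the fold threshold. The members' median lay 0.74 below that of all genes on the log2 scale, a distance that a change of scaling leaves in place by construction, since it moves all genes by nearly the same amount.

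**Figure D2:**
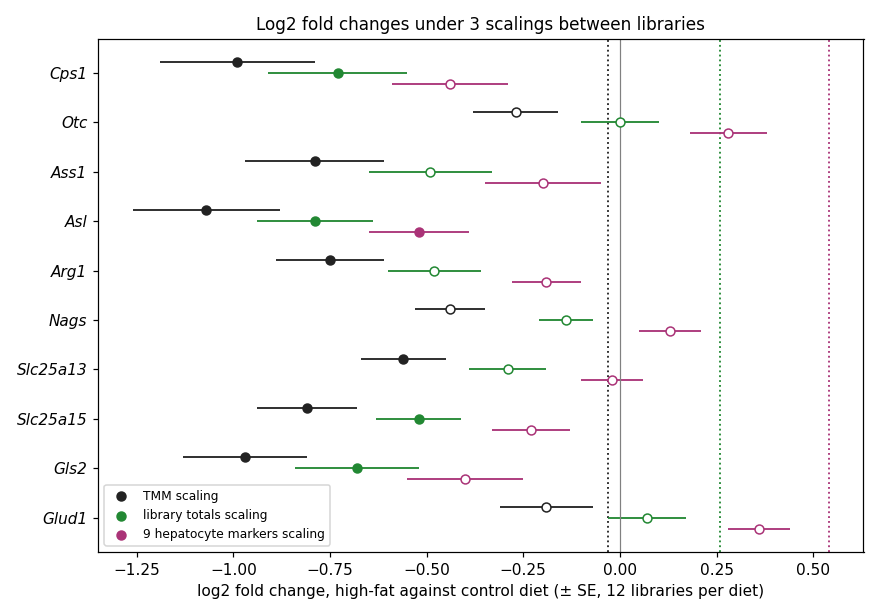
Log2 fold change, high-fat against control diet (x axis), of each gene (y axis) with its SE under TMM, library totals or hepatocyte marker scaling. Filled points were called, open points were not, and dotted lines give the median of all genes under each scaling (-0.03, 0.26 and 0.54). All members shift right together, and Asl is the only filled point under hepatocyte marker scaling.

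With TMM scaling, the diets separated further among libraries with low Xist counts. Among the 12 libraries with Xist above 1000 counts, Asl (-0.78 ± 0.18, adjusted p = 0.00997) and Arg1 (-0.65 ± 0.11, adjusted p = 0.00228) were lower in edgeR's test, against 0.882% of all genes. Arg1 was the 1 member whose diets did not overlap there, with 1430 to 2106 CPM on the control diet and 870.1 to 1207 CPM on the high-fat diet. In this set every high-fat diet library lay below every control for 2.39% of genes. Among the 12 libraries with Xist below 1000 counts, 9 members were lower, the exception being Glud1 (-0.28 ± 0.12), against 7.99% of all genes. Diets did not overlap there for 7 members (Cps1, Otc, Asl, Arg1, Nags, Slc25a13 and Slc25a15), against 9.66% of all genes. TMM factors of the diets lay further apart in this set, at 1.119 to 1.341 (high-fat) against 0.679 to 0.9562 (control). With high Xist counts they were 0.9945 to 1.064 against 0.8921 to 1.006. Fits within a set were not repeated with another scaling, so how far the calls depend on TMM was not tested. The ranges do depend on it. Relative to library totals, those of Cps1, Arg1, Nags, Slc25a13 and Slc25a15 overlap among the libraries with low Xist counts. For Cps1, high-fat diet replicate 9 (32058 of 17649254 counts) lies above control replicate 11 (25640 of 18466778 counts). Asl stays narrowly apart in that set, at 7516 counts in that high-fat diet library and 7922 in that control library. In the control libraries of that set Alb took 3.333% of counts in replicate 10 and 5.334% to 6.095% in the others. In those with high Xist counts it took 7.35% to 9.015%, so the sets also differed in other ways, whose part in the members' values was not tested.

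Otc, not called over all libraries, is given by set as an example. With high Xist counts it was at 269.8 to 345.5 CPM on the control diet and 189.6 to 358.2 CPM on the high-fat diet, a log2 fold change of -0.01 ± 0.13. With low Xist counts it was at 259 to 349.8 CPM on the control diet and 179.9 to 237.9 CPM on the high-fat diet, a log2 fold change of -0.55 ± 0.11. With TMM scaling, the ranges overlapped in the first set and were apart in the second. Relative to library totals they overlap in the second set too. There, high-fat diet replicate 12 (5374 of 19306126 counts) lies above control replicate 11 (4573 of 18466778 counts). The difference in log2 fold change between the sets was tested, with TMM scaling, by a term for diet and set together. It was -0.54 for Otc (adjusted p = 0.0439) and -0.54 for Nags (adjusted p = 0.0181). No member reached an adjusted p of 0.01 in edgeR's test of this term, which 4.06% of all genes did, and 4 of the 10 members had an unadjusted p under 0.05 (Nags, Otc, Asl and Cps1), against 23.9% of all genes. A larger diet effect in one set was therefore not shown for any member at that threshold.

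**Figure D3:**
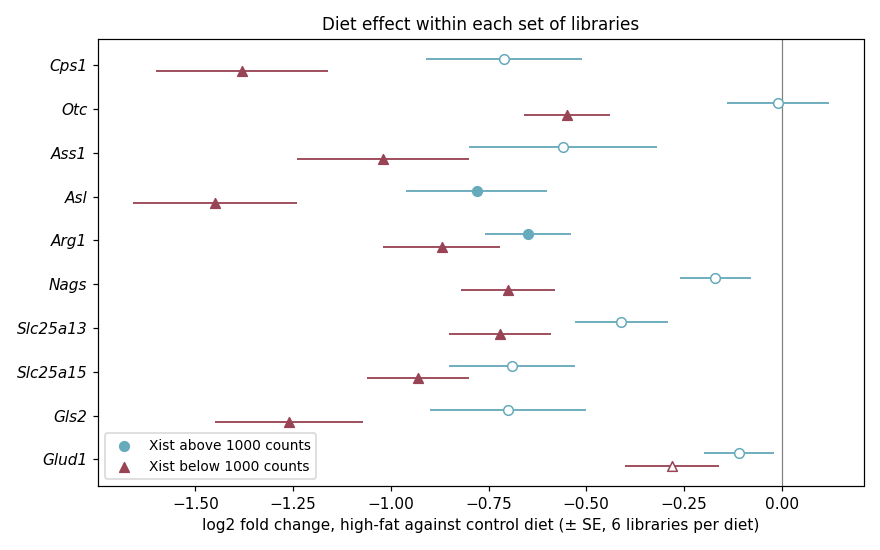
Log2 fold change between diets (x axis, TMM scaling, ± SE, 6 libraries per diet) of each gene (y axis), fitted separately in the libraries with Xist above (circles) and below (triangles) 1000 counts. Filled points were called. Triangles lie left of circles for all 10 genes, with 9 triangles and 2 circles filled.

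Ratios within a library do not depend on the scaling and set each member beside a related gene. Glul, glutamine synthetase, takes up ammonia in hepatocytes around the central vein. The ratio of Cps1 to Glul counts was 1.028 to 4.727 on the control diet (median 3.034) and 0.7135 to 4.36 on the high-fat diet (median 1.447). The ranges overlapped, and the log2 difference was -0.69 ± 0.29 (SE, two-sided permutation test with 100000 resamples, p = 0.03, adjusted over 6 ratios 0.036). The call was lost in 14 of 24 cases when 1 library was left out (high-fat diet replicates 1, 6, 7, 8, 10, 11 and 12, control replicates 1, 2, 3, 5, 7, 9 and 12), with differences of -0.82 to -0.58 over all 24, and within either Xist set. Glul itself was at 910.9, 1170 and 1613 CPM on the control diet and at 310.8, 1081 and 1443 CPM on the high-fat diet (lowest, median, highest), with a fitted log2 change of -0.23 ± 0.18 (adjusted p = 0.324).

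Arg2, the mitochondrial arginase found mainly outside hepatocytes, had 0 to 14 counts on the control diet and 9 to 42 on the high-fat diet. The log2 ratio of Arg1 to Arg2, with 0.5 added to each count, was 10.33 to 15.63 on the control diet and 8.61 to 11.16 on the high-fat diet. Its difference was -2.76 ± 0.60 (permutation p = 1e-05, the smallest these resamples can give, adjusted 6e-05) with Arg2 at 0 in some control libraries. It was -3.54 with 0.1 added to each count, -1.19 among the libraries with high Xist counts and -4.33 among those with low Xist counts, and it passed the test in each. Slc25a12, the second aspartate carrier, had 163 to 459 counts, and the ratio of Slc25a13 to it went from a median of 12.78 to 10.86. That log2 difference was -0.34 ± 0.10 (permutation p = 0.003, adjusted 0.006).

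Slc25a2, another ornithine carrier, had at most 8 counts in a library, so the ratio of Slc25a15 to it (log2 difference -0.07 ± 0.52, permutation p = 0.898) carries a large counting error. The ratio of Ass1 to Asl had a median of 5.156 on the control diet and 6.494 on the high-fat diet. It was 3.695 to 6.777 on the control diet and 3.94 to 8.803 on the high-fat diet, and the ranges overlapped. The log2 difference was 0.32 ± 0.13 (permutation p = 0.0285, adjusted 0.036). This call was lost in 12 of 24 cases when 1 library was left out (high-fat diet replicates 4, 7, 9, 10, 11 and 12, control replicates 1, 3, 4, 5, 6 and 10), with differences of 0.27 to 0.38, and among libraries with high Xist counts (0.23).

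Across the 24 libraries the members' log2 levels moved with Cps1. Pearson's r with Cps1 was 0.92 for Slc25a15, 0.91 for Arg1, 0.90 for Ass1, Asl and Gls2, 0.82 for Slc25a13, 0.80 for Nags, 0.70 for Otc and 0.66 for Glud1. These values pool both diets and sets and share the scaling of each library, so they describe the libraries only. The genes most like Cps1 outside the members, among those with a mean of at least 10 CPM, were Paics (0.95), a purine synthesis enzyme, Aass (0.93), which opens lysine breakdown, Got1 (0.93), Scnn1a (0.92), an epithelial sodium channel subunit, and Spata2l (0.92).

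Of 36 other genes of nitrogen disposal 35 were tested, Slc38a5 being too low, and 6 were lower and 3 higher. Of all genes tested 4.99% were lower and 13.2% higher. The list's median log2 fold change was -0.38, or -0.08 with library totals (2 lower and 5 higher). It turned to 0.19 with hepatocyte marker scaling (2 lower and 10 higher). Under each of these scalings a smaller share of this list than of all genes was higher. Got1, the cytosolic aspartate aminotransferase, was at 212.1, 504.3 and 1438 CPM on the control diet and at 112.9, 206.4 and 436.2 on the high-fat diet (lowest, median, highest), a log2 fold change of -1.39 ± 0.27. The other lower genes were Slc38a2 (-1.14), an amino acid transporter, Slc25a22 (-0.68), a mitochondrial glutamate carrier, Agmat (-0.63), agmatinase, Fh1 (-0.60), fumarase, and Aspg (-0.55), an asparaginase. Higher were Aldh18a1 (1.45), which starts proline and ornithine synthesis from glutamate, Slc7a1 (1.36), a transporter of cationic amino acids such as arginine, and Gatm (0.84), which uses arginine to make the precursor of creatine. These 3 were scarce, with control medians of 1.326, 0.952 and 6.005 CPM.

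Of 18 regulators known to act on transcription of the pathway, 3 were lower and none was higher, with a median of -0.39, while none was called with library totals (median -0.12) or hepatocyte marker scaling (median 0.17). They were Ppargc1a (-0.80), a coactivator induced by glucagon, Klf15 (-0.64), a factor that drives amino acid breakdown, and Creb3l3 (-0.54), a membrane-bound factor of the liver. Creb3l3 was at 328.5 to 449.4 CPM on the control diet and at 229.1 to 313.7 CPM on the high-fat diet. With TMM scaling its diets did not overlap, unlike those of any of the 10 members. Every high-fat diet library lay below every control for 0.402% of all genes tested. Whether the diets of Creb3l3 stay apart with another scaling was not tested.

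Position along the liver lobule was described with 2 lists. Of 12 other periportal genes 6 were lower and none higher, with a median of -0.46 that was -0.16 with library totals (4 lower and 2 higher) and 0.12 with hepatocyte marker scaling (1 lower and 3 higher). These were Pck1 (-1.12), the gluconeogenic carboxykinase, Etnppl (-1.05), a phospholyase, Sds (-0.97), serine dehydratase, Hal (-0.90), histidine ammonia-lyase, Igfals (-0.77), a carrier protein of growth factors, and Sdsl (-0.54). Of 15 pericentral genes 1 was lower, Rnase4 (-0.70), and none higher, with a median of -0.45 that was -0.19 with library totals (none called) and 0.08 with hepatocyte marker scaling (1 higher). The medians of both lists were alike in size although their counts of calls differed, and the difference between the lists was not tested.

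Genes that break down amino acids, and so feed nitrogen to the cycle, were lower in 14 of 33 cases and higher in none, with a median of -0.43 that was -0.15 with library totals (5 lower) and 0.12 with hepatocyte marker scaling (3 lower and 3 higher). The largest falls were in Gnmt (-1.38), glycine N-methyltransferase, Tat (-1.33), tyrosine aminotransferase, and Agxt (-1.32), which transfers nitrogen between alanine and glyoxylate. Sds and Hal, also periportal, came next. They were followed by Haao (-0.79) of the tryptophan route and Cth (-0.77), cystathionine gamma-lyase. For all of these lists, counts of calls are to be read against the shares of all genes tested. With TMM these were 4.99% lower and 13.2% higher. With library totals 1.26% were lower, and 3827 of 17913 genes were higher. With hepatocyte marker scaling 0.653% were lower, and 7510 of 17913 genes were higher.

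**Figure D4:**
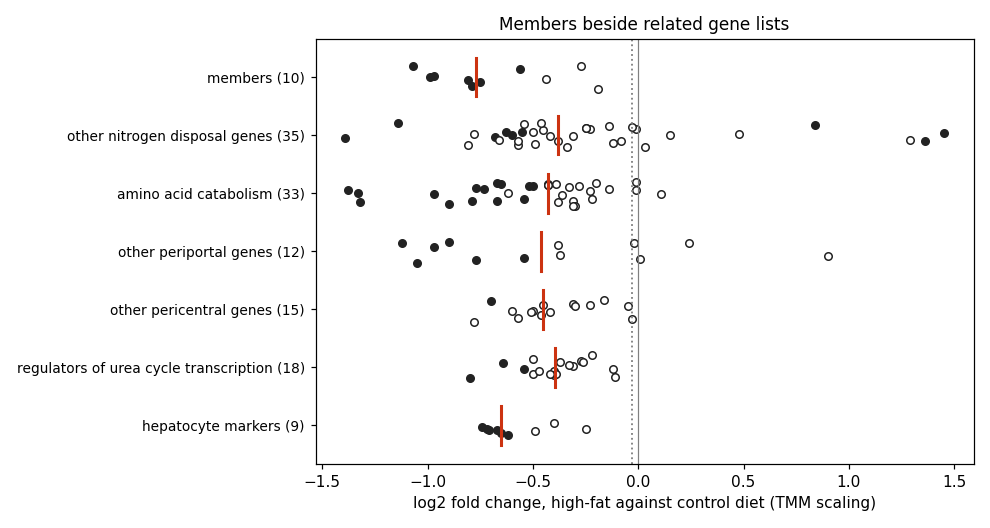
Log2 fold change between diets (x axis, TMM scaling) of every tested gene in the members and 6 related lists (y axis, number tested in parentheses; vertical jitter only). Filled points were called, red bars are list medians and the dotted line is the median of all genes (-0.03). The members' median (-0.77) lies left of the others, and the 3 filled points right of 0 are Gatm, Slc7a1 and Aldh18a1.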

How the data were processed

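Livers of 24 mice were sequenced as poly(A)-selected RNA. Unnormalized integer counts for each Ensembl gene were deposited. Per the labels, the submitters' processing notes name STAR 2.7.3a, bcl2fastq and the build mm10. The study's methods describe a stranded mRNA kit and, for alignment to the human genome with the same STAR version, PISCES for quantification. For the mouse table, the counting program, annotation release and strand setting are not given in the sources used here. Symbols, positions and exon lengths came from GENCODE M21 (GRCm38), which named 51745 of 56205 IDs, and start-site windows from RefSeq.

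Counts were fitted with edgeR 4.0.16 in R 4.3.3 (TMM, quasi-likelihood, diet as the only term) over 17913 genes that had 1 count or more in 12 or more libraries. Calls needed an adjusted p of 0.01 or less and a log2 fold change beyond 0.5 in size. The script was tested on simulated counts. Ratios were tested by permutation of log2 counts with 0.5 added, adjusted over 6. Alternatives included DESeq2 1.42.0, limma-voom (limma 3.58.1), 1 surrogate variable (sva 3.50.0), other scalings, filters and thresholds, the replicate block, the sets of libraries and each library left out.

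The members, gene lists and tests were chosen with earlier results of these data known. Text names a list's called genes, or the 8 with the largest change, plus the ratio partners and the 5 genes most like Cps1. No 2 libraries of a diet were alike within sampling noise (lowest chi-square per degree of freedom 9.47). Replicates are separate libraries, and the labels do not say how mice were caged. The symbol Tf had no ID. Of the 6 ratios 1, and 1 gene covered by the naming rule, are not reported here.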

Additional observations from a re-analysis of the deposited data

Results flagged for a closer look

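Each member was checked for a library far from the other 5 of its diet and Xist set, in 40 groups of 6, of which chance marks about 1 in 20. In 4 groups 1 library stood apart. Control replicate 10 had 1396 CPM of Asl, above the 448.7 to 765.7 CPM of the other controls with low Xist counts. That library also had the lowest depth (14468418 counts), the lowest TMM factor (0.679) and the fewest genes detected (16646). Mitochondrial genes took 3.652% of its counts, against 6.039% to 8.678% in the other controls. High-fat diet replicate 12 had 878.3 CPM of Arg1, above 643.9 to 701.5 CPM in the others of its set. Control replicate 5 had 105.7 CPM of Nags, above 77.84 to 87.4 CPM. High-fat diet replicate 9 had 652.2 CPM of Glud1, below 853.5 to 907.1 CPM. The cause of these values was not tested, and leaving out any of the 4 libraries left every member on its side of the threshold.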

How the results depend on the processing

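In the fits over all genes, 7 members were lower and none higher under DESeq2, limma-voom, DESeq2's size factors, all 3 filters on low counts, 1 surrogate variable, the set as a covariate and each of the 24 libraries left out. The same count was found without control replicates 10 and 11 together, an alternative added after seeing the data. An adjusted p of at most 0.05 with no fold threshold called 9, as did the libraries with low Xist counts. Fewer were called with library totals (4), hepatocyte marker scaling (1, added after seeing the data), a log2 fold change over 1 (1) and the libraries with high Xist counts (2, with fewer samples). Glud1 turned positive with library totals (0.07) and with hepatocyte marker scaling (0.36), as did Otc (0.28) and Nags (0.13) with the latter. With the replicate number as a block the count was 7, and the log2 fold change of Cps1 was -1.02. Deviations of same-numbered libraries correlated at -0.088 to 0.359, over 0.1 in 11 of 12 pairs. Libraries of other numbers in the same Xist set correlated about as much (mean 0.150 against 0.168), and 2 high-fat diet and 3 control libraries were closest to their own number, so no pairing by number was taken from the data.

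The ratios were less stable. With libraries left out, the ratio of Cps1 to Glul ranged from -0.82 to -0.58 and missed the threshold in 14 of 24 cases. That of Ass1 to Asl ranged from 0.27 to 0.38 and missed it in 12. That of Slc25a15 to Slc25a2 ranged from -0.26 to 0.17, and it was 0.16 with 0.1 added to each count and 0.07 in the low Xist set. Among libraries with high Xist counts alone, Cps1 to Glul (-0.73), Slc25a13 to Slc25a12 (-0.20) and Ass1 to Asl (0.23) did not pass, nor did Cps1 to Glul (-0.64) with low Xist counts. The cause was not tested. Depth limits the ratios with Arg2 and Slc25a2, which had few counts.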
